A study of Mus musculus with 16 samples.

Results

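MHC class II presentation was followed through 9 genes in colonic epithelial cells of mice, out of 56268 genes measured by RNA sequencing of total RNA in 16 libraries. The members were chosen by name from knowledge of the pathway, with earlier results of these data known. Counts of members set beside shares of all genes are therefore descriptions. The members are the transactivator Ciita, the invariant chain Cd74, the class II chains H2-Aa, H2-Ab1 and H2-Eb1, the peptide editors H2-DMa, H2-DMb1 and H2-DMb2, and the protease Ctss. Control (WT) mice carried Villin-Cre, a transgene that expresses Cre recombinase from a promoter active in intestinal epithelium, and conditional knockout (cKO) mice carried the same transgene with a floxed Rictor gene, so that all 4 groups share the Cre transgene. Rictor is the defining subunit of the kinase complex mTORC2. Each genotype was sampled on normal water (WT and cKO) and after 3% dextran sulfate sodium (WT_DSS and cKO_DSS), a polysaccharide in drinking water that injures the colonic epithelium, with 4 libraries in each group. The labels used here give neither strain, sex nor age, nor how long DSS was given. They also leave unsaid whether each library is 1 animal, and the p-values therefore speak of the spread between libraries alone, which may be technical. Levels are in FPKM, a fragment count divided by gene length and library size, so that levels of different genes can be set side by side.

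Class II molecules carry peptides of ingested proteins to the cell surface, where CD4+ T cells read them. The alpha and beta chains assemble on the invariant chain, which endosomal proteases cut down to a fragment that H2-DM then exchanges for antigen peptide. CIITA switches on the class II, invariant chain and H2-DM genes through RFX, CREB and NF-Y factors bound to their promoters, and interferon gamma induces Ciita in part through IRF1. B cells, dendritic cells and macrophages express these genes all the time, while intestinal epithelial cells express them at lower levels that rise in inflammation.

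The promoters of the 2 class II chains with an entry, H2-Aa and H2-Eb1, are shown for the motifs through which these genes are known to be read together, and that of Ctss for its interferon motif. Each line holds the 120 bases that end just before the RefSeq start site (RefSeq, GRCm38.p6, the gene's own strand, 5′ to 3′), and capitals mark a motif match on either strand. The positions are chr17:34287824-34287943 on the minus strand, chr17:34305747-34305866 on the plus strand and chr3:95526666-95526785 on the plus strand.
H2-Aa: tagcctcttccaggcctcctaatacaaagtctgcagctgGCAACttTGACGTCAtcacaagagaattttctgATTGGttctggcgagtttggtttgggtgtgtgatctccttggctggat
H2-Eb1: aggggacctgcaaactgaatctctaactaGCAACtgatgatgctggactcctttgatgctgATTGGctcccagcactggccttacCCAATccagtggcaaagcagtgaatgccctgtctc
Ctss: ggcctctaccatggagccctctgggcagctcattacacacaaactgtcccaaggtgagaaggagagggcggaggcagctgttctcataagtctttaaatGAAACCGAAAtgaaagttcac

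The motifs searched were CCAAT (the Y box of NF-Y, ATTGG on the other strand), GCAAC (part of the X1 box of RFX, GTTGC on the other strand), TGACG (part of the X2 box of CREB, CGTCA on the other strand) and GAAANNGAAA (the core of the ISRE motif of IRF factors). H2-Aa held GCAAC 81 bases before the start site, TGACG and CGTCA overlapping each other 74 and 71 bases before it, and ATTGG 48 bases before it. H2-Eb1 held GCAAC 91 bases before the start site and the Y box 59 and 35 bases before it. The step from GCAAC to the first ATTGG was 33 bases in H2-Aa and 32 bases in H2-Eb1. These short motifs are common: of 32851 mouse promoter windows of 300 bases in the same table, 37.4% held CCAAT, 35.2% GCAAC, 20.8% TGACG and 3.44% the ISRE core. Ctss held the ISRE core 21 bases before its start site, and no match to the other 3 motifs stood in its shown stretch. A match is a description of letters, and no binding was measured here.

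The beta-chain genes of H2-DM are neighbours with closely similar sequence, which bears on how reads can be assigned to them. In windows of 30 bases around the Y box (capitals) at chr17:34153120-34153149 and chr17:34145149-34145178 (both on the plus strand) the pair was identical at 25 positions.
H2-DMb1: tcactcagtgATTGGtctgacctgcctacc
H2-DMb2: tcacttagtgATTGGactgacttaactacc

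The Y box lay 61 bases before the RefSeq start site of H2-DMb1 and 90 bases before that of H2-DMb2. RefSeq start sites of the H2-DM genes differ from the gene starts of the deposited annotation. In all, 6 of the 9 members were matched to the promoter table. The promoters of Cd74, H2-Ab1 and Ciita were not analysed here.

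The libraries held 13911823 to 16414914 reads recovered from the deposited FPKM, with 19969 to 22738 genes above 0. The labelled cell type matched its markers: 9 epithelial markers (among them Epcam, Krt8 and Vil1) summed to between 8614 and 13411 FPKM in each library, while 8 B cell markers summed to 0.527 to 2.53 FPKM and 8 dendritic cell markers to 0.483 to 1.42 FPKM. Other lists had higher sums, at 9.46 to 16.3 FPKM for 10 macrophage markers and 5.64 to 12.1 FPKM for 8 T cell markers. The 6 markers of NK and cytotoxic cells summed to 5.94 to 21.2 FPKM, and the 5 markers of all leukocytes to 5.13 to 12.6 FPKM. The deleted gene was an incomplete check of the labels, because FPKM count the whole gene: Rictor was 2.80 ± 0.44 FPKM in WT, 2.47 ± 0.24 in cKO, 3.63 ± 0.57 in WT_DSS and 2.51 ± 0.46 in cKO_DSS (mean ± SD, n = 4), and neither genotype difference was called. Sex-linked genes moved with DSS. Y-linked reads ranged from 0 to 1856 on water and from 2681 to 4533 after DSS. The X-linked gene Xist went the other way, with 10022 to 25600 reads on water. After DSS it had 5275 reads in WT_DSS 2 and at most 7 in the other libraries. Every DSS comparison below is therefore also a comparison of libraries with different levels of sex-linked genes, which the design does not separate from DSS. WT 1, WT 2, WT 4, cKO 1, cKO 2 and WT_DSS 2 each held at least 5275 Xist and 635 Y-linked reads. Whether these libraries mix animals of both sexes was not tested. One library, WT 4, was the highest or the lowest of the 16 in 7 of the 9 members, and the results it moved most are given with and without it.

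The members differed widely in level per length of gene (the plot of FPKM by library). Ctss, cathepsin S, the endosomal protease that makes the last cuts in the invariant chain, had the highest mean in every group, at 131 to 185 FPKM. Cd74 came next, with group means of 19.8 to 71.1 FPKM. Its range lay apart from that of Ctss above it and of H2-Ab1 below it in each of the 4 groups. H2-Ab1 led the class II chains at 2.17 to 8.39 FPKM, and the ranges of H2-Aa, H2-Eb1, H2-DMa and H2-DMb1 overlapped their neighbours in the order in nearly every group. Ciita had the lowest mean of the 9 in each group, at 0.25 to 1.02 FPKM. The invariant chain therefore exceeded the beta chain it escorts throughout, at a Cd74 to H2-Ab1 FPKM ratio of 9.10 ± 2.77 in WT, 9.19 ± 2.39 in cKO, 12.0 ± 2.57 in WT_DSS and 15.1 ± 4.81 in cKO_DSS, with ranges that overlapped between all groups.

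**Figure D1:**
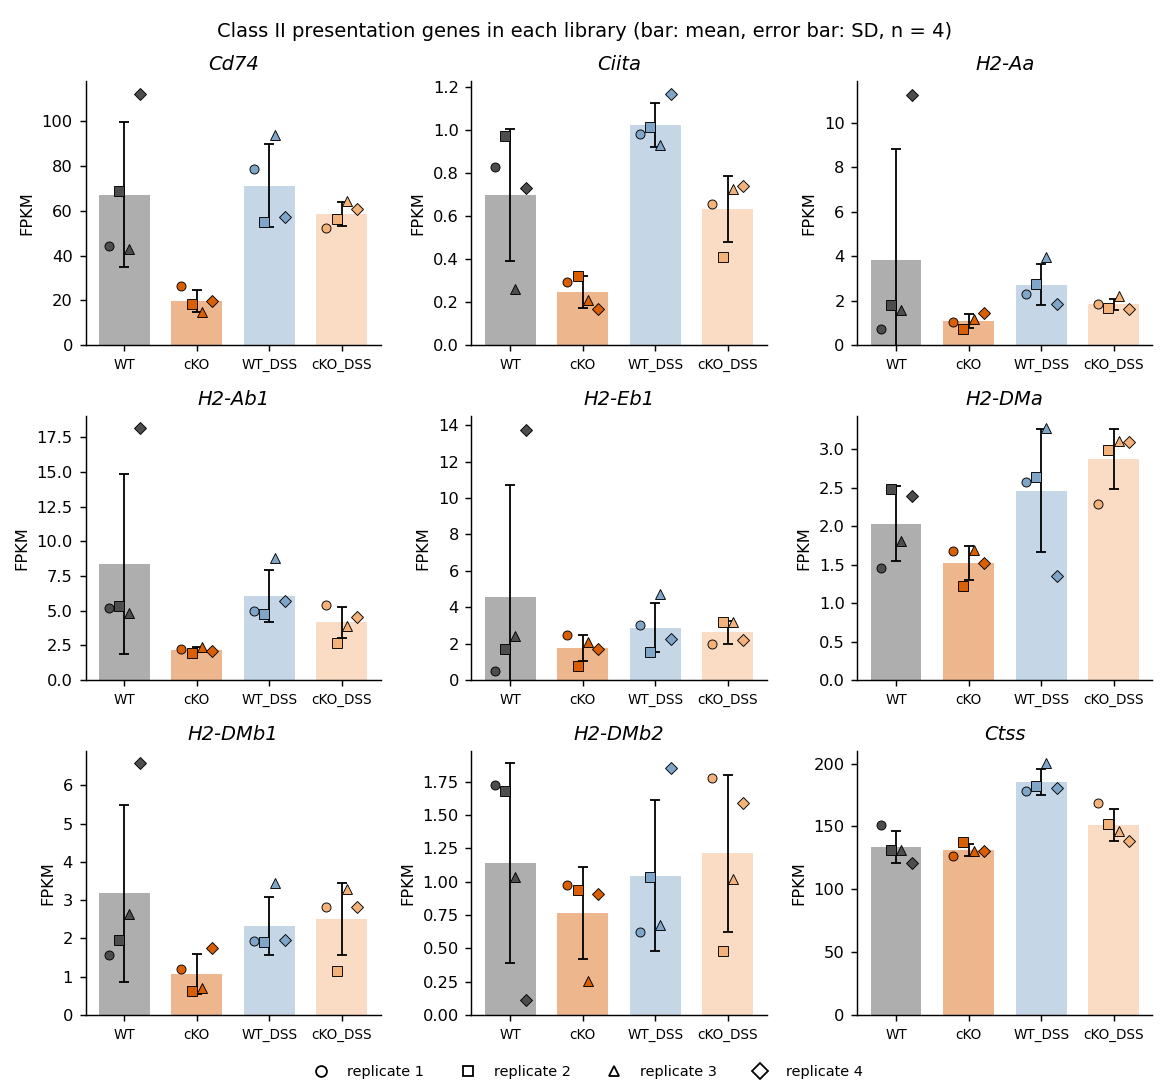
FPKM of the 9 class II presentation genes in each of the 16 libraries, with a panel for each gene. Bars are group means, error bars are SD (n = 4, drawn to 0 where they would pass below it) and marker shapes give the replicate number. WT 4 (diamond) is the highest library for Cd74, H2-Aa, H2-Ab1, H2-Eb1 and H2-DMb1, and the 4 cKO libraries sit below all WT libraries for Cd74 and H2-Ab1.

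Between genotypes on water, the invariant chain gene fell in cKO, and the means of all 9 members were lower in cKO than in WT. The share of all genes with a lower mean is not given here, and the cKO mean of Ctss was 98.2% of its WT mean. Without WT 4 the WT mean of H2-Eb1 was 1.53 FPKM, below its cKO mean of 1.76 FPKM. Cd74 (mm10 chr18:60803848-60812652, plus strand) was 44.4, 68.9, 42.9 and 112 FPKM in the 4 WT libraries and 26.6, 18.4, 14.8 and 19.5 FPKM in the 4 cKO libraries. Every cKO library lay below every WT library. The group means were 67.1 ± 32.4 and 19.8 ± 4.96 FPKM (SD, n = 4), and the log2 fold change on log2(FPKM + 1), the scale of all fold changes below, was -1.63 ± 0.26 SE (limma adjusted p = 0.0287). Of the 8 members tested, Cd74 alone was called lower and none higher, where 0.0377% of 13255 genes were called lower. The median log2 fold change of the 8 was -0.62 with WT 4 included, beside 0.01 over all genes tested. In bulk RNA, fewer cells of a type and less RNA per cell cannot be told apart.

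The call on Cd74 was close to the threshold. Its fold change stayed between -1.80 and -1.35 with any 1 of the 16 libraries left out, and was -1.35 ± 0.22 SE (limma adjusted p = 0.0405) without WT 4. Over all genes tested, fold changes correlated with GC content, the share of G and C bases. Spearman r was -0.52 on water, 0.38 after DSS, -0.53 with DSS in control, 0.05 with DSS in cKO and 0.59 for the interaction. WT 4 was the library most shifted with GC content (0.50). With a GC correction Cd74 on water was -1.47 ± 0.24 SE (limma adjusted p = 0.0277). The adjusted p passed 0.05 without WT 2 (0.0852), cKO 2 (0.0923), cKO 3 (0.105), cKO 4 (0.0957), WT_DSS 1 (0.0526), cKO_DSS 3 (0.0540) or cKO_DSS 4 (0.0530), and with no filter on low genes (0.0789), with the 8 water libraries alone (0.0682) and with the replicate number as a block (0.0761).

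Among the class II chains, H2-Ab1 (chr17:34257689-34269419, plus strand), the beta chain of I-A, was 5.21, 5.36, 4.85 and 18.1 FPKM in WT and 2.22, 1.97, 2.40 and 2.10 FPKM in cKO. The groups did not overlap, and the cKO values lay within 0.19 FPKM (SD) of their mean of 2.17, while WT 4 stood far above the other WT libraries. The difference of -1.36 ± 0.31 SE was not called over all genes (adjusted p = 0.111), and it was -0.95 ± 0.18 SE without WT 4 (adjusted p = 0.0859). With sample quality weights, which give libraries with larger residuals less weight, H2-Ab1 was called at -1.13 (adjusted p = 0.0242). In all, 2 of 8 tested members had every cKO library below every WT library, where 7.65% of all genes did. Leaving out WT 4 added H2-DMb2, a gene at low counts.

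The other I-A and I-E chains were carried by a single WT library. H2-Aa (chr17:34282744-34287823, minus strand), the alpha chain of I-A, was 0.722, 1.80, 1.59 and 11.2 FPKM in WT and 1.05, 0.707, 1.18 and 1.46 FPKM in cKO. H2-Eb1 (chr17:34305867-34316674, plus strand), the beta chain of I-E, was 0.482, 1.69, 2.41 and 13.7 FPKM in WT and 2.49, 0.775, 2.08 and 1.70 FPKM in cKO. In both genes the groups overlapped, and WT 1 was lower than at least 3 of the 4 cKO libraries. H2-Aa differed by -0.76 ± 0.42 SE (adjusted p = 0.339) and by -0.16 without WT 4. H2-Eb1 differed by -0.49 ± 0.50 SE (adjusted p = 0.605), and its sign turned to 0.17 without WT 4.

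The H2-DM genes, whose product loads peptide, were low in all libraries. H2-DMb1 (chr17:34153072-34160230, plus strand) was 1.55, 1.95, 2.63 and 6.57 FPKM in WT and 1.21, 0.624, 0.700 and 1.75 FPKM in cKO, from 16 to 165 reads. The cKO 4 library lay above WT 1, and the difference of -0.91 ± 0.31 SE was not called (adjusted p = 0.179), and it was -0.57 ± 0.25 SE without WT 4 (adjusted p = 0.389). H2-DMa (chr17:34119541-34139101, plus strand) was 2.03 ± 0.49 FPKM in WT and 1.52 ± 0.22 in cKO, with overlapping libraries (-0.25 ± 0.16 SE, adjusted p = 0.405). Ctss (chr3:95526786-95556403, plus strand) was 151, 131, 131 and 121 FPKM in WT and 127, 137, 130 and 130 FPKM in cKO. The libraries overlapped, and the log2 difference was -0.02 ± 0.09 SE (adjusted p = 0.909).

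Ciita (chr16:10480059-10528418, plus strand), the master switch of the pathway, passed 1 FPKM in 2 libraries and so was below the filter of the genome-wide test. On water it was 0.828, 0.971, 0.260 and 0.730 FPKM in WT and 0.295, 0.323, 0.208 and 0.166 FPKM in cKO, from 22 to 158 reads. The cKO mean was 35.6% of the WT mean, but WT 3 lay among the cKO libraries, and an exact two-sided permutation test over samples gave p = 0.0857 (0.0857 after adjustment over the 4 comparisons of Ciita), with 0.0286 the smallest that groups of 4 can give. A limma fit with no filter gave -0.43 ± 0.13 SE (adjusted p = 0.254). Ciita shares genomic positions with Dexi, and the counting is not stated to use strand, so their reads may not be separable.

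**Figure D2:**
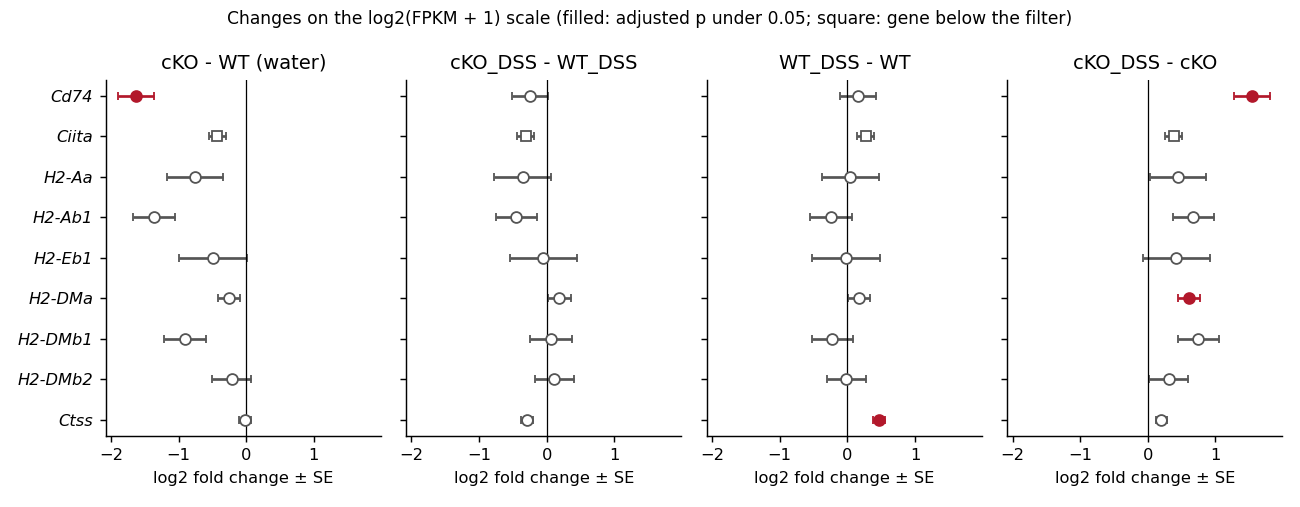
Log2 fold changes on log2(FPKM + 1) with SE for the 9 members (rows) in 4 comparisons (panels), from limma over 16 libraries. Filled red points have an adjusted p under 0.05 and squares mark Ciita, which was below the filter and is shown from the fit with no filter. Cd74 is the only filled point between genotypes on water (-1.63) and the farthest to the right with DSS in cKO (1.54).

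After DSS, no member was called between the genotypes by limma, where 3.70% of all genes were called in either direction; 1 member, Ctss, had an unadjusted p under 0.05 (20.2% of all genes did), and limma voom on the recovered reads called none. Cd74 was 78.4, 55.1, 93.9 and 57.1 FPKM in WT_DSS and 52.3, 56.5, 64.5 and 60.8 FPKM in cKO_DSS. The cKO_DSS libraries lay inside or just below the range of WT_DSS, and the difference was -0.25 ± 0.26 SE (adjusted p = 0.645). H2-Ab1 was 4.996, 4.74, 8.78 and 5.74 FPKM in WT_DSS and 5.41, 2.69, 3.93 and 4.57 FPKM in cKO_DSS, a difference of -0.45 ± 0.31 SE (adjusted p = 0.438) with overlapping libraries. H2-Aa (-0.36), H2-Eb1 (-0.05), H2-DMa (0.19), H2-DMb1 (0.06) and H2-DMb2 (0.11) had differences smaller than or close to their SE. The median over the 8 tested members was -0.15, beside -0.01 over all genes.

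The protease and the transactivator had the clearest separation of libraries after DSS. Ctss was 178, 182, 200.1 and 181 FPKM in WT_DSS and 169, 152, 146 and 138 FPKM in cKO_DSS. Every cKO_DSS library lay below every WT_DSS library, as in 4.88% of all genes. The cKO_DSS mean was 81.6% of the WT_DSS mean, and the log2 difference of -0.29 ± 0.09 SE missed the threshold (adjusted p = 0.0708). It passed with sample quality weights (-0.33, adjusted p = 0.00634) and without cKO_DSS 1 (-0.35, adjusted p = 0.0318). Ciita was 0.983, 1.01, 0.929 and 1.17 FPKM in WT_DSS and 0.658, 0.409, 0.725 and 0.741 FPKM in cKO_DSS. Again all cKO_DSS libraries were below all WT_DSS libraries, at 61.9% of the mean, and the exact two-sided permutation p was 0.0286, the smallest possible (0.0571 adjusted over the 4 comparisons). The limma fit with no filter gave -0.31 ± 0.13 SE (adjusted p = 0.320).

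In control mice Ctss rose with DSS, and no other member passed the test. Ctss went from 134 ± 12.6 FPKM in WT to 185 ± 10.1 FPKM in WT_DSS (SD, n = 4). All 4 WT_DSS libraries lay above all WT libraries, and the log2 fold change was 0.47 ± 0.09 SE (limma adjusted p = 0.00234). That is 1 of 8 tested members, where 15.0% of all genes were called higher and 15.5% had every WT_DSS library above every WT library. Cd74 was 67.1 ± 32.4 FPKM in WT and 71.1 ± 18.5 FPKM in WT_DSS (0.16 ± 0.26 SE, adjusted p = 0.678). H2-Ab1, H2-Eb1, H2-DMb1 and H2-DMb2 had differences of -0.24 to -0.02 and H2-Aa and H2-DMa of 0.05 and 0.17, none called. The median of the 8 was 0.01, beside -0.01 over all genes.

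The DSS comparison of the class II chains in control mice depended on WT 4. H2-Aa after DSS was 2.32, 2.73, 3.97 and 1.83 FPKM, above WT 1, 2 and 3 and below WT 4. Without WT 4 it was called higher, at 0.65 ± 0.20 SE (adjusted p = 0.0381). H2-Eb1 after DSS was 3.04, 1.54, 4.70 and 2.23 FPKM. Its difference was 0.64 ± 0.31 SE without WT 4 and not called (adjusted p = 0.161). Without WT 4 Cd74 differed by 0.44 (adjusted p = 0.162), H2-Ab1 by 0.17, H2-DMb1 by 0.11 and H2-DMb2 by -0.30, none of them called. Ciita was 0.697 ± 0.308 FPKM in WT and 1.02 ± 0.10 in WT_DSS, a mean 1.47 times as high, with WT 2 at 0.971 FPKM inside the range of WT_DSS (exact two-sided permutation p = 0.0571, adjusted 0.0762).

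In cKO mice Cd74 and H2-DMa rose with DSS, and the means of all 9 members were higher in cKO_DSS than in cKO. The share of all genes with a higher mean is not given here. Cd74 rose from 19.8 ± 4.96 FPKM to 58.5 ± 5.27 FPKM (SD, n = 4), a mean 2.95 times as high. The lowest cKO_DSS library, at 52.3 FPKM, was above the highest cKO library, at 26.6 FPKM, and the log2 fold change was 1.54 ± 0.26 SE (limma adjusted p = 0.00160). With any 1 library left out it stayed called, between 1.42 and 1.69. The cKO_DSS mean lay below the WT mean of 67.1 FPKM, and its 4 libraries were within the range of the WT libraries.

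H2-DMa, the alpha chain of the peptide editor, was 1.67, 1.22, 1.68 and 1.52 FPKM in cKO and 2.29, 2.99, 3.11 and 3.09 FPKM in cKO_DSS. The groups did not overlap, and the log2 fold change was 0.61 ± 0.16 SE (adjusted p = 0.0208). The call was lost without cKO 2 (adjusted p = 0.0592), cKO_DSS 3 (0.0505) or cKO_DSS 4 (0.0518), and with no filter (0.0524). Brd2, which overlaps H2-DMa and was near 24.5 FPKM on average, differed by 0.01 ± 0.13 SE in the same comparison (adjusted p = 0.972). The 2 calls of 8 tested compare with 8.07% of all genes called higher.

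H2-Ab1 in cKO_DSS, at 5.41, 2.69, 3.93 and 4.57 FPKM, lay wholly above cKO, whose highest library was 2.40 FPKM, but the difference of 0.67 ± 0.31 SE was not called (adjusted p = 0.161). H2-Aa in cKO_DSS was 1.87, 1.68, 2.19 and 1.63 FPKM, also wholly above cKO (0.44 ± 0.42 SE, adjusted p = 0.533). The shared SE of both genes takes in the spread of WT 4. Without WT 4, H2-Ab1 (0.67 ± 0.17 SE, adjusted p = 0.0160) and H2-DMb1 (0.75 ± 0.23 SE, adjusted p = 0.0417) were called as well, so that 4 of 8 members were. With all libraries, 5 of 8 tested members had every cKO_DSS library above every cKO library, where 10.1% of all genes did. The median over the 8 was 0.53, beside -0.01 over all genes. Ctss was 131 ± 4.56 FPKM in cKO and 151 ± 12.9 FPKM in cKO_DSS (0.20 ± 0.09 SE, adjusted p = 0.139). Ciita was 2.55 times as high in cKO_DSS as in cKO, at 0.633 ± 0.154 against 0.248 ± 0.073 FPKM, with no overlap (exact two-sided permutation p = 0.0286, the smallest possible, adjusted 0.0571).

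The DSS results stand on libraries that also differed in sex-linked genes. With the Y-linked level as a covariate, the change of Cd74 with DSS in cKO was 1.17 ± 0.42 SE (adjusted p = 0.216), that of H2-DMa 0.70 ± 0.27 SE (adjusted p = 0.251) and that of Ctss with DSS in control 0.43 ± 0.13 SE (adjusted p = 0.109). The fold changes kept their direction and none passed the threshold. The part of sex-linked differences in these results was not tested further, and cKO 3 and cKO 4 held 0 Y-linked reads while every DSS library held at least 2681.

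Whether the genotypes responded unlike each other to DSS was asked by the interaction term. No member was called by limma or by limma voom, where 0.151% of all genes were called by limma in either direction. An unadjusted p under 0.05 was found for 3 of the 8 members and for 23.2% of all genes. Cd74 had the largest difference of responses, 1.38 ± 0.37 SE (adjusted p = 0.0907), from 0.16 in control and 1.54 in cKO. It was 1.40 without cKO_DSS 2 (adjusted p = 0.0454) and 1.10 without WT 4 (adjusted p = 0.113). The response of Ctss differed the other way, by -0.27 ± 0.12 SE (adjusted p = 0.201). H2-DMb1 (0.97 ± 0.43 SE, or 0.63 ± 0.34 SE without WT 4) and H2-Ab1 (0.91 ± 0.43 SE, or 0.50 ± 0.25 SE without WT 4) were not called either. With sample quality weights, Cd74, H2-Ab1, H2-DMb1 and Ctss were called. The DSS comparisons and the genotype comparisons share their libraries, so a low group on water enters both the genotype difference and the DSS difference.

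WT 4 stood apart in the class II genes (the plot of chains and markers by library). Against the mean of WT 1, 2 and 3, it held 9.01 times as much H2-Eb1, 8.21 times as much H2-Aa, 3.53 times as much H2-Ab1, 3.22 times as much H2-DMb1 and 2.16 times as much Cd74, each the highest of the 16 libraries. The transactivator did not stand out there: Ciita was 1.06 times and H2-DMa 1.25 times the mean of the other WT libraries. Ctss (0.878 times) and H2-DMb2 (0.0778 times) were each at their lowest of the 16. Markers of professional antigen-presenting cells were not raised in WT 4. Its 8 B cell markers summed to 0.624 FPKM, rank 13 of 16, and its 8 dendritic cell markers to 0.639 FPKM, rank 14, with all 8 of each list under 1 FPKM and 4 dendritic cell markers at 0. Its 10 macrophage markers summed to 11.9 FPKM, rank 9 of 16, and its 5 markers of all leukocytes to 6.82 FPKM, rank 15.

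**Figure D3:**
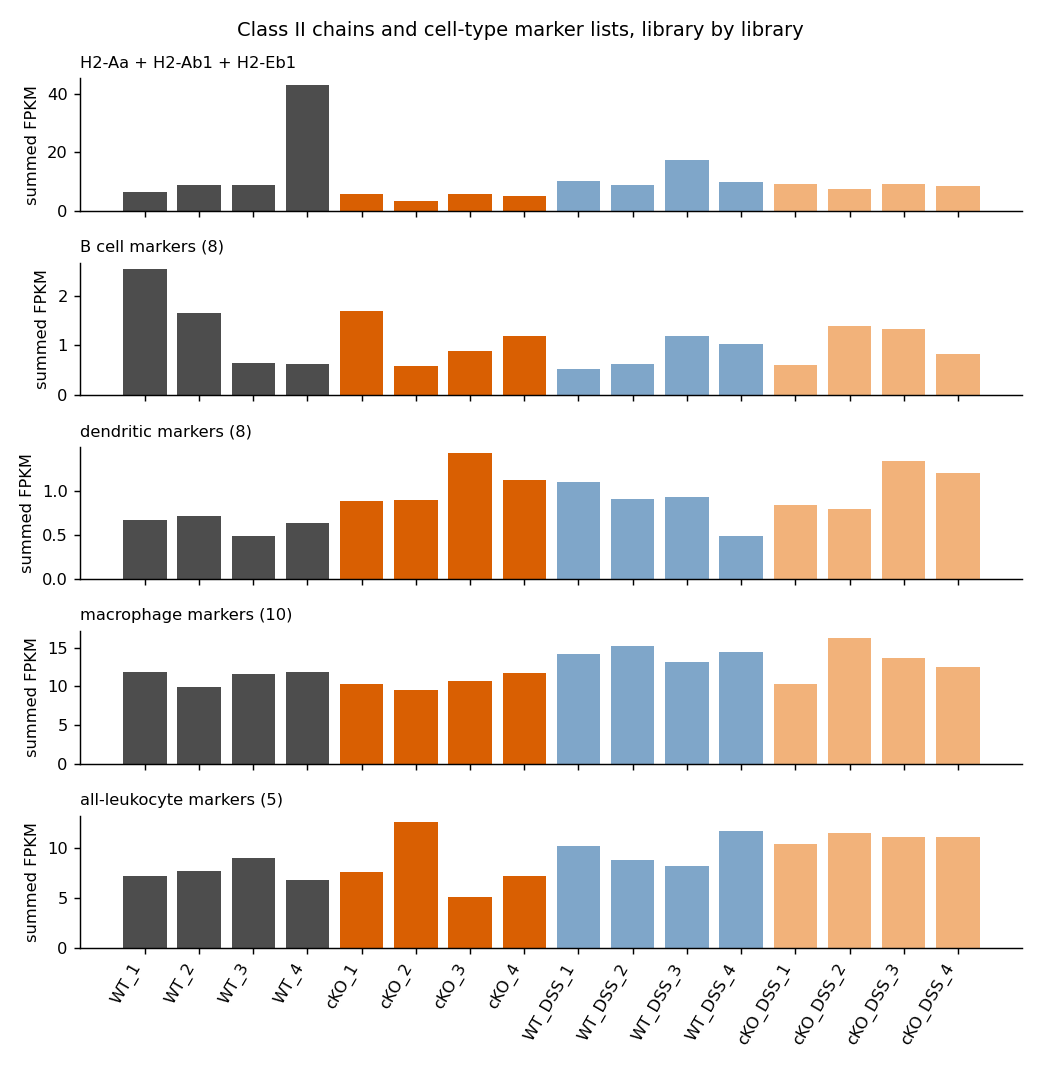
Summed FPKM in each of the 16 libraries (bars, coloured by group) for H2-Aa, H2-Ab1 and H2-Eb1 together and for 4 lists of cell type markers. WT 4 has the highest class II sum, while its B cell, dendritic cell and leukocyte sums are low among the 16 libraries.

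The markers of other cell types were set beside Cd74 in each group. On water, where Cd74 was lower in cKO, the B cell sum was 0.624 to 2.53 FPKM in WT and 0.593 to 1.70 in cKO, and the macrophage sum was 9.95 to 11.9 and 9.46 to 11.8. The dendritic cell sum was higher in cKO, at 0.885 to 1.42 FPKM against 0.483 to 0.710 in WT, mostly through Itgax, whose mean was 0.794 FPKM in cKO and 0.381 in WT. The means of the other 7 markers were below 0.1 FPKM in both groups. None of the 8 B cell and none of the 8 dendritic cell markers reached the filter in any comparison. With DSS, C1qb and Lyz2, genes of macrophages, were called higher in both genotypes among 4 tested macrophage markers: Lyz2 by 1.15 ± 0.25 SE in control and 0.84 ± 0.25 SE in cKO. The macrophage sum was 13.1 to 15.2 FPKM in WT_DSS and 10.3 to 16.3 FPKM in cKO_DSS. Fibroblast markers also moved with DSS: of 3 tested, 3 were called higher in control (15.0% of all genes) and 2 in cKO (8.07% of all genes), led by Col3a1, a fibrillar collagen, at 1.24 ± 0.11 SE and 0.74 ± 0.11 SE. Markers of all leukocytes summed to 5.13 to 12.6 FPKM in cKO and 10.3 to 11.5 FPKM in cKO_DSS, with 0 of 5 called by limma in that comparison and 2 at an unadjusted p under 0.05 (28.7% of all genes). In control, where the sum was 6.82 to 8.99 FPKM in WT and 8.22 to 11.7 FPKM in WT_DSS, 1 of the 5 was called higher with DSS, Laptm5, at 0.45 ± 0.16 SE (adjusted p = 0.0482). The part of these cells in the rise of Cd74, H2-DMa and Ctss with DSS was not tested. Csf1r and Adgre1, defining genes of macrophages, were below the filter, and their means were higher after DSS. Csf1r was 0.120 FPKM in WT, 0.401 in WT_DSS, 0.224 in cKO and 0.430 in cKO_DSS, and Adgre1 was 0.010, 0.158, 0.025 and 0.135 FPKM in the same order.

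Within groups the chains varied together, mostly through WT 4. Over the 16 libraries as deviations from their group means, Pearson r was 0.92 between H2-Aa and H2-Eb1, 0.86 between H2-Aa and H2-Ab1 and 0.76 between H2-Aa and Cd74. Without WT 4 these were 0.70, 0.38 and 0.46 over 15 libraries. Ctss and H2-DMb2 went the other way, at -0.45 and -0.70 with H2-Aa, and at -0.11 and -0.36 without WT 4. These are descriptions over libraries that share depth and preparation.

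The pair H2-DMb1 and H2-DMb2 was split unevenly in WT 4 (the stacked plot of the pair). Their longest transcripts were 94.1% identical over 1219 aligned bases, with a run of 221 identical bases, so the split between them is uncertain. H2-DMb2 (chr17:34143307-34151555, plus strand) was 1.72, 1.68, 1.03 and 0.115 FPKM in WT and 0.974, 0.938, 0.252 and 0.906 FPKM in cKO. It rested on 3 to 50 reads per library. It made up 1.72% of the summed pair in WT 4 and 16.3 to 60.1% in the other libraries. Summed, the pair was 4.31 ± 1.59 FPKM in WT, 1.84 ± 0.74 in cKO, 3.36 ± 0.74 in WT_DSS and 3.73 ± 1.41 in cKO_DSS. The 4 cKO sums, up to 2.66 FPKM, lay below the 4 WT sums, from 3.27 FPKM, and the difference of -0.90 ± 0.26 SE was not called (adjusted p = 0.136). With DSS in cKO the sum differed by 0.71 ± 0.26 SE (adjusted p = 0.0788).

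**Figure D4:**
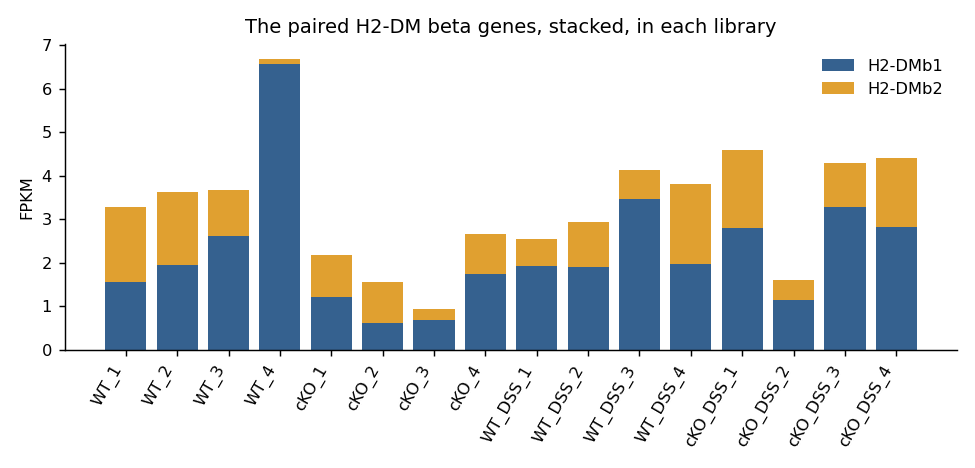
FPKM of H2-DMb1 (blue) and H2-DMb2 (orange), stacked, in each of the 16 libraries. WT 4 has the tallest bar with 1.72% of it from H2-DMb2, and the 4 cKO bars, up to 2.66 FPKM, are below the 4 WT bars.

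Upstream of Ciita, the interferon gamma signalling genes Irf1 and Socs1 rose with DSS in both genotypes (the plot of other pathway genes). Of 7 tested, 4 were called higher in control and 3 in cKO, where 15.0% and 8.07% of all genes were, and none lower; the medians were 0.30 and 0.14, beside -0.01 over all genes in each comparison. Irf1, an interferon-induced activator of Ciita, rose from 25.1 ± 3.04 to 36.7 ± 2.36 FPKM in control (0.54 ± 0.10 SE, limma adjusted p = 0.00290). In cKO it rose from 21.3 ± 1.53 to 34.7 ± 4.50 FPKM (0.67 ± 0.10 SE, adjusted p = 0.000712). Socs1, a feedback inhibitor of the pathway, rose by 0.76 ± 0.15 SE in control (adjusted p = 0.00377) and by 0.93 ± 0.15 SE in cKO (adjusted p = 0.00117). Between genotypes none of the 7 was called by limma, on water (4 at an unadjusted p under 0.05, as were 18.1% of all genes) or after DSS (0). Ifng itself, the gene of the cytokine, was listed at 0 FPKM in 13 of the 16 libraries and at most at 0.253 FPKM. Of 2 tested markers of NK and cytotoxic cells, 1 was called higher with DSS in control (15.0% of all genes) and 2 in cKO (8.07%). Gzmb, a gene of cytotoxic lymphocytes, rose by 0.72 ± 0.19 SE in control and 0.94 ± 0.19 SE in cKO. Gzma was not called in control (0.49 ± 0.21 SE, limma adjusted p = 0.0876). Of 4 tested T cell markers, 0 were called higher with DSS in either genotype, and Lck was called lower in control (-0.33 ± 0.09 SE, adjusted p = 0.0177).

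The factors that sit on class II promoters were tested next. Of 6 tested subunits of RFX, NF-Y and CREB, Creb1 was called higher with DSS in control (0.53 ± 0.10 SE, adjusted p = 0.00217), a share near the 15.0% of all genes, and no other call was made by limma in the 5 comparisons. Rfx5, the DNA-binding RFX subunit, was between 1.84 and 2.70 FPKM in all 16 libraries. Class II chains outside the 9 members were low: H2-Oa, H2-Ob, H2-Eb2 and H2-Ea summed to 0.02 to 1.64 FPKM and none was tested. H2-Ea, the alpha chain that pairs with H2-Eb1, had 12, 22, 0 and 0 reads in WT, so that WT 4, with the most H2-Eb1, had none.

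Among other endosomal enzymes that act beside cathepsin S, 7 were tested. With DSS, 4 were called higher in cKO, where 8.07% of all genes were, and 2 in control, where 15.0% were, with 1 lower, Ctsz, in control. The medians were 0.25 in cKO and 0.11 in control, beside -0.01 over all genes in each. Sppl2a, the membrane protease that clears the last stub of the invariant chain, rose from 39.1 ± 4.49 to 82.4 ± 9.79 FPKM in control (1.05 ± 0.16 SE, adjusted p = 0.000737) and by 0.85 ± 0.16 SE in cKO (adjusted p = 0.00299). Lgmn, asparagine endopeptidase, which can make early cuts in the invariant chain, rose in cKO from 11.6 ± 1.34 to 19.2 ± 2.97 FPKM (0.67 ± 0.13 SE, adjusted p = 0.00301). It was also the 1 enzyme of the 7 called between genotypes after DSS, higher in cKO_DSS by 0.52 ± 0.13 SE (adjusted p = 0.0359), where Ctss was lower in each library. Cd274, the coinhibitory ligand PD-L1, was called higher with DSS in control (1.24 ± 0.17 SE) and in cKO (0.80 ± 0.17 SE). Cd80, Cd86 and Cd40, which give T cells the second signal, were below the filter.

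**Figure D5:**
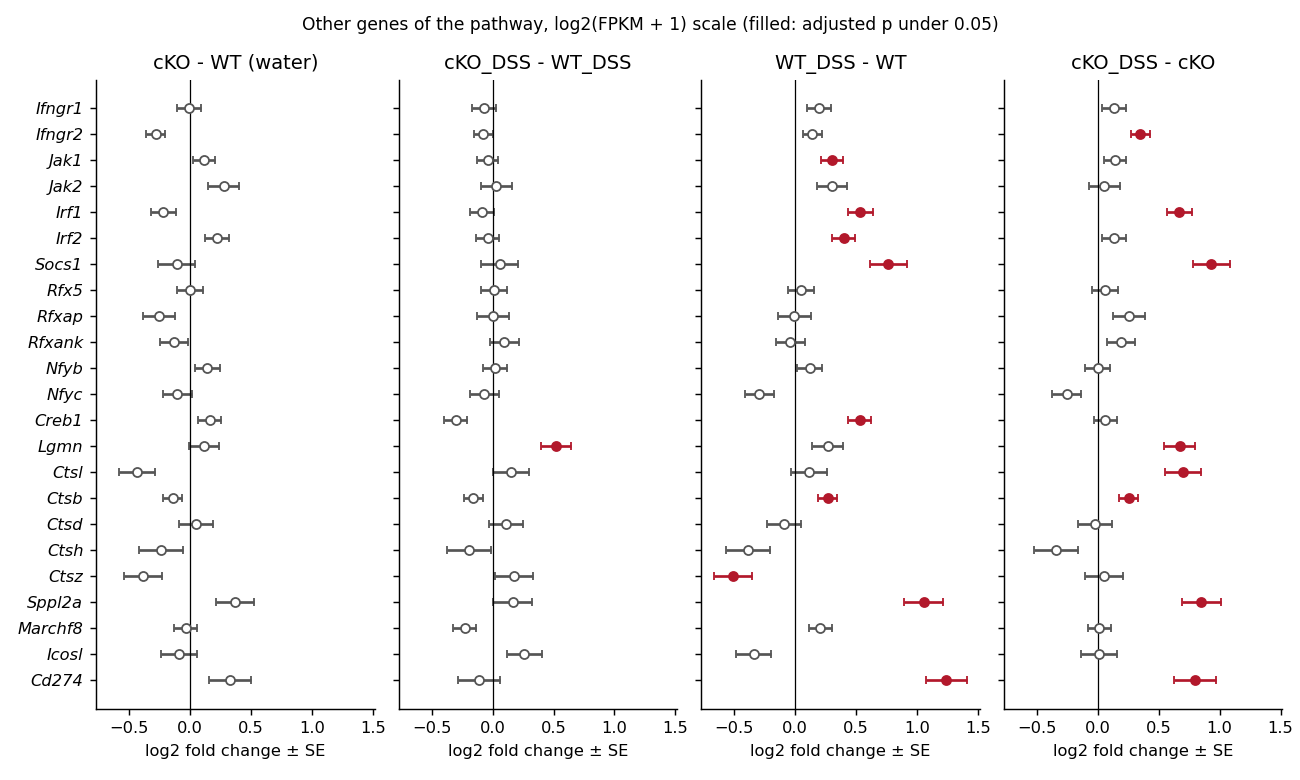
Log2 fold changes on log2(FPKM + 1) with SE for the other tested genes of the pathway (rows) in 4 comparisons (panels), from limma over 16 libraries. Filled red points have an adjusted p under 0.05. Filled points are nearly all in the DSS panels and to the right of 0, led by Cd274 and Sppl2a in control and Socs1 in cKO, and Lgmn is the single filled point between genotypes.

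Genes whose pattern was most like that of Cd74, H2-Aa, H2-Ab1 and H2-Eb1 were found by Pearson r with their mean standardised log2 level over the 16 libraries. Outside the members the 8 highest were Gsdmcl2 (0.90), H1f2 (0.85), Cyba (0.84), Irf8 (0.84), Cyhr1 (0.83), Nsmce3 (0.82), Desi1 (0.82) and Ndufaf3 (0.82). Among the members not used in the mean, H2-DMb1 reached 0.88, H2-DMa 0.57, Ctss 0.18 and H2-DMb2 -0.34, and without WT 4 these were 0.79, 0.76, 0.70 and 0.06. Over the 15 libraries without WT 4, the 8 genes outside the members were at 0.77 (Gsdmcl2), 0.75 (H1f2), 0.78 (Cyba) and 0.82 (Irf8). Cyhr1 was at 0.62, Nsmce3 at 0.69, Desi1 at 0.56 and Ndufaf3 at 0.66. Within groups the r of Irf8 was 0.71, and 0.44 without WT 4. Irf8 stood between 10.5 and 17.8 FPKM. Within groups the 8 highest were Tmem252 (0.92), Gapdh (0.90), Tppp (0.90), Gsdmcl2 (0.88), a gene without a name (0.88), Arntl (0.87), Arid3a (0.87) and Zfp346 (0.86). Gapdh was 39.8 FPKM in WT 4 and at most 3.67 FPKM elsewhere, and its r within groups was 0.31 without that library. Without WT 4 the others were at 0.82 (Tmem252), 0.51 (Tppp), 0.48 (Gsdmcl2), 0.62 (the gene without a name), 0.42 (Arntl), 0.67 (Arid3a) and 0.83 (Zfp346).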

How the data were processed

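Total RNA of colonic epithelial cells was extracted with TRIzol, and the labels' protocols say that only reads free of adapters and unread bases and of high quality went on. The submitters' processing notes name featureCounts 1.5.0-p3, DESeq2 1.20.0 and mm10. Aligner, annotation and use of strand in counting: not given in the sources used here, so reads of overlapping genes may be mixed. The authors deposited FPKM, with 1 column per library. FPKM times gene length came out as whole multiples of 1 read within 0.05 for 100% of values above 0, which gave the reads behind each value.

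Levels were tested as log2(FPKM + 1), which understates changes of low genes, with limma 3.58.1 in R 4.3.3: 4 group means over 16 libraries, eBayes with trend, genes at 1 FPKM or more in 4 or more libraries (13255), Benjamini-Hochberg over all of them in each of 5 comparisons, called at an adjusted p under 0.05. Ciita, under that filter, was tested with an exact permutation test (SciPy 1.17.1) and a fit with no filter. The fit was also run on simulated data. These had the same setting of spread for all genes, no shift with GC content and no outlying library. No conclusion on the calls of these members is drawn from that run. The pair H2-DMb1 and H2-DMb2 was aligned with Biopython 1.88. No sequencing batch or date is given.

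The members and lists were chosen with earlier results of these data known. All 9 members were named; from each other list the genes with the 2 smallest p in a comparison with a call, with a few markers and factors added as values; and the 8 genes with the highest r with the mean of Cd74, H2-Aa, H2-Ab1 and H2-Eb1. H2-Ea, Ifng, Rfx5, Csf1r, Adgre1, Itgax and Ctsz were chosen outside the smallest p or after their values were seen. An item of the interferon gamma list, and a motif, are not reported here. Alternatives were quantile normalization, a pseudocount of 0.1, the filter set at 5 FPKM or left out, a replicate block, sample quality weights, the 8 compared libraries alone, limma voom on the recovered reads, a GC correction by loess (span 0.5), a covariate for Y-linked genes, and leaving out each library, cKO_DSS 3 and 4 together, or WT 4 and WT_DSS 2 together; the sum of H2-DMb1 and H2-DMb2 was chosen after seeing the data.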

Additional observations from a re-analysis of the deposited data

Results flagged for a closer look

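In 6 of the 36 groups of 4 values (9 members in 4 groups), 1 library lay far from the other 3, with a gap to its nearest neighbour that passed Dixon's critical share of the range of the group. Chance flags about 1 in 20 groups. In 3 of them the library was WT 4: H2-Aa was 11.2 FPKM there and 0.722 to 1.80 FPKM in the other WT libraries, H2-Ab1 was 18.1 FPKM against 4.85 to 5.36, and H2-Eb1 was 13.7 FPKM against 0.482 to 2.41. The others were single values: H2-DMa was low in cKO_DSS 1, at 2.29 FPKM, H2-DMb1 was high in WT_DSS 3, at 3.46 FPKM, and H2-DMb2 was low in cKO 3, at 0.252 FPKM. H2-DMb1 and H2-DMb2 are closely similar in sequence and rest on few reads.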

How the results depend on the processing

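The count of members called on water, 1 in the reported fit, was 0 with no filter, with the 8 compared libraries alone and under the replicate block, 2 with sample quality weights, and 0 to 1 with a library left out. After DSS the count of 0 became 1 with sample quality weights and 0 to 1 with a library left out. With DSS in control the count of 1 became 0 with the Y-linked covariate and 1 to 2 with a library left out. With DSS in cKO the count of 2 became 1 with no filter, 1 with the filter at 5 FPKM, 4 with sample quality weights, 1 without cKO_DSS 3 and 4, 0 with the Y-linked covariate and 1 to 4 with a library left out. For the interaction the count of 0 became 4 with sample quality weights and 0 to 1 with a library left out. Beyond the fewer libraries or genes of some settings, the cause was not tested.

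The replicate block was used although the numbers pair no animals in the labels. Same-numbered libraries correlated in their deviations at 0.02 to 0.12 (genotype on water), -0.14 to 0.30 (genotype after DSS), -0.06 to 0.05 (DSS in control) and -0.20 to 0.02 (DSS in cKO), and at most 2 of the 4 pairs correlated best with their own number, so the samples share only a number. The block ended the call on Cd74 on water and changed no other count by more than 1.5 times.

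Fold changes that were not called changed sign in these settings. Without WT 4 and WT_DSS 2, H2-Eb1 was 0.17 on water, H2-Ab1 0.26, H2-Eb1 0.82 and H2-DMb1 0.17 with DSS in control, and the interactions of H2-Aa and H2-Eb1 were -0.19 and -0.40. With quantile normalization, Ctss was 0.036 on water, and H2-Eb1 0.021 and H2-DMb2 0.059 with DSS in control. With sample quality weights, H2-Eb1 was 0.020 after DSS and 0.18 with DSS in control. With the GC correction, H2-Aa was -0.052, H2-Ab1 0.045, H2-Eb1 0.071 and H2-DMb2 0.11 with DSS in control. With the Y-linked covariate, Cd74 was -0.16, H2-Eb1 0.33 and H2-DMb1 0.14 in that comparison. With a pseudocount of 0.1, H2-Eb1 was 0.17 and H2-DMb2 0.16, and with limma voom 0.23 and 0.25. Without cKO_DSS 3 and 4, H2-DMb1 after DSS was -0.19.

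Leaving out each library in turn, the ranges that held both signs were -0.94 to 0.17 (H2-Eb1) and -0.068 to 0.037 (Ctss) on water; -0.23 to 0.16 (H2-Eb1), -0.050 to 0.28 (H2-DMb1) and -0.012 to 0.29 (H2-DMb2) after DSS; -0.015 to 0.44 (Cd74), -0.30 to 0.65 (H2-Aa), -0.41 to 0.17 (H2-Ab1), -0.47 to 0.64 (H2-Eb1), -0.41 to 0.11 (H2-DMb1) and -0.30 to 0.13 (H2-DMb2) with DSS in control; and -0.20 to 0.74 (H2-Aa) and -0.22 to 0.89 (H2-Eb1) for the interaction. Genes of 3 to 50 reads, such as H2-DMb2, are limited by depth.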
